A study of Mus musculus with 10 samples.

Results

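Claudins are small membrane proteins with paired extracellular loops that span the gap between neighbouring epithelial cells and form the strands of the tight junction. Each family member gives the junction its own permeability to ions and water, and scaffold proteins of the zonula occludens family tie the strands to actin. In epidermis the tight junction lies in the granular layer, and mice without Cldn1 lose water through the skin and die soon after birth. Calcium added to cultured keratinocytes starts the assembly of cell junctions together with differentiation.

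mRNA levels of 7 claudins, Cldn1, Cldn3, Cldn4, Cldn7, Cldn8, Cldn12 and Cldn23, were followed in cultured primary mouse keratinocytes. The members were the probe sets annotated to 1 of these symbols alone, 14 probe sets of 45101 measured, and they gave 7 of the 18194 genes with a symbol. A gene's level was the mean of its probe sets on the log2 scale, on which a difference of 1 is a doubling.

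The series held 10 expression arrays of keratinocytes from P1 FVB mice, which the methods describe as new-born. The cells fell into differentiated keratinocytes expressing A-C/EBP (n = 2), differentiated keratinocytes treated with 5-AZA (n = 2), differentiated keratinocytes with neither (n = 4) and undifferentiated keratinocytes (n = 2). Differentiated cells of all 3 kinds were kept in 0.4 mM calcium for 2 days, and undifferentiated cells stayed in 0.05 mM calcium. A-C/EBP pairs with transcription factors of the C/EBP family and keeps them off DNA, acting as a dominant negative. It came from mice with a tetracycline-controlled transgene in keratinocytes, and doxycycline was withdrawn to switch it on. The methods name wild type FVB mice as the other source of cells, and the labels do not say which conditions besides A-C/EBP, if any, came from transgenic mice. A transgenic culture kept with doxycycline was not analysed here, so the transgene's background and its protein cannot be told apart. 5-AZA is 5-azacytidine, which blocks the upkeep of DNA methylation, and was given at 1 µM. The labels do not say whether arrays of a condition came from separate cultures or litters, and every p-value below therefore rests on the spread between arrays alone, which may be technical.

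The arrays were alike in scale, with medians between 4.64 and 4.78. Replicate arrays of a condition correlated at 0.990 to 0.996 over the 18194 genes. A-C/EBP replicate 2 stood apart in its hybridization controls, which averaged 11.3 there against 9.03 to 10.6 on the other 9 arrays. It also stood apart in the X-linked Xist RNA, at 9.93 against 5.84 to 8.27, and in the Y-linked Eif2s3y, at 3.74 against 5.40 to 6.03. A-C/EBP replicate 1 had Xist at 6.54 and Eif2s3y at 5.90. The mix of male and female cells behind each array was not tested. Differentiated replicate 2 had the lowest maximum, 13.67, where the other 9 arrays reached 14.42 to 14.58. Of 8 listed keratinocyte markers 7 were measured, among them the basal keratins Krt5 and Krt14, and all 7 lay above the array median on every array, although Krt5 and Trp63 fell with calcium. Markers of pigment cells were also present, with a summed level of 12.06 to 12.76 with A-C/EBP, 12.48 to 12.55 with 5-AZA, 11.72 to 12.34 in differentiated cells and 12.26 to 12.48 in undifferentiated cells. Of 8 fibroblast markers 4 to 6 lay above the array median on each array, as did 3 of 6 immune markers. The summed fibroblast level was 9.03 to 10.21 with A-C/EBP and 10.81 to 11.28 with 5-AZA. It was 9.69 to 10.64 in differentiated cells and 10.19 to 10.46 in undifferentiated cells.

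The first question was which claudins changed with calcium. Cldn23, Cldn3, Cldn7 and Cldn4 rose in differentiated keratinocytes and none of the 7 fell. The limma test across all genes called 6.64% of genes as higher and 9.13% as lower in differentiated cells. Before adjustment 6 of the 7 had a p under 0.05, the lower Cldn8 among them, as did 4691 of all genes. The median difference of the 7 claudins was 1.77, and that of all genes was -0.01. By the study's own rule, a difference of more than 0.5 on the log2 scale with no test, the same 4 claudins were higher, as were 7.23% of all genes.

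**Figure D1:**
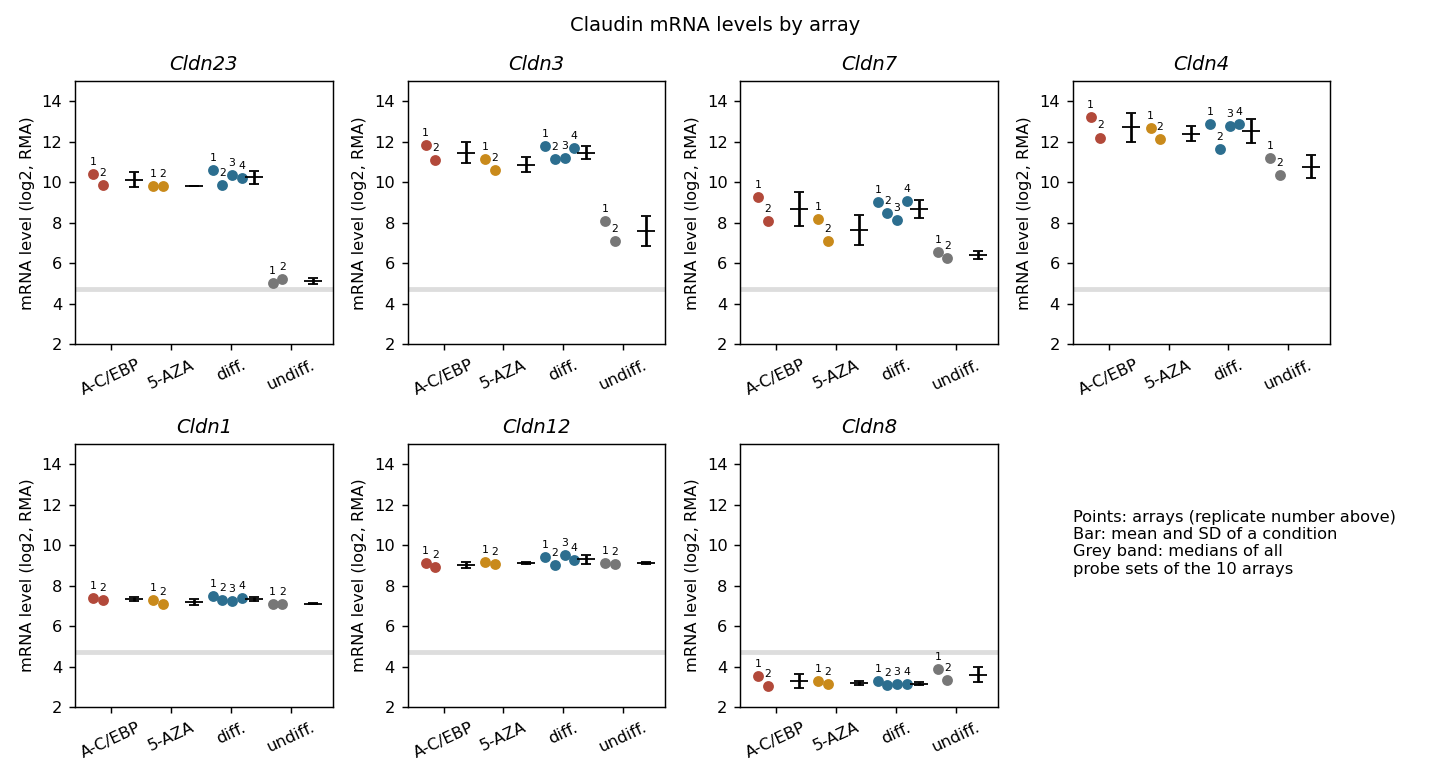
mRNA level (log2, RMA) of the 7 claudins on each of 10 arrays in A-C/EBP (n = 2), 5-AZA (n = 2), differentiated (n = 4) and undifferentiated (n = 2) keratinocytes; points are arrays numbered by replicate, black bars are the mean and SD, and the grey band spans the medians of all probe sets, 4.64 to 4.78. In Cldn23, Cldn3, Cldn7 and Cldn4 the 2 undifferentiated arrays sit below the other 8, and Cldn8 lies under the grey band in all conditions.

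Cldn23, one of the less studied claudins, had levels of 10.62, 9.85, 10.34 and 10.20 in differentiated cells, against 5.03 and 5.24 in undifferentiated cells. The undifferentiated arrays lay just above the array median and every differentiated array lay far above it. The difference was 5.12 ± 0.21 (SE), a 34.8-fold higher level (limma adjusted p = 1.35e-06). It was the largest increase among the 18194 genes. RMA compresses differences near the bottom of its scale, and the undifferentiated level was close to that bottom.

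Cldn3, a sealing claudin and a receptor of Clostridium perfringens enterotoxin, had levels of 11.79, 11.13, 11.22 and 11.70 in differentiated cells, against 8.11 and 7.09 in undifferentiated cells. The groups were far apart although the 2 undifferentiated arrays differed from each other by more than any 2 differentiated ones. The increase of 3.86 ± 0.32 (SE) was 14.5-fold (adjusted p = 7.11e-05) and ranked 23 among all genes by size.

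Cldn7, which in many epithelia lies along the lateral membrane as well as in the junction, had levels of 9.02, 8.49, 8.12 and 9.10 in differentiated cells, against 6.56 and 6.27 in undifferentiated cells. The groups did not overlap. The difference was 2.27 ± 0.39 (SE), or 4.82-fold (adjusted p = 0.0032).

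Cldn4, the other enterotoxin receptor of the family, had levels of 12.88, 11.66, 12.78 and 12.87 in differentiated cells, against 11.19 and 10.37 in undifferentiated cells. Differentiated replicate 2 stood well under the other 3. The difference was 1.77 ± 0.40 (SE), or 3.41-fold (adjusted p = 0.0129). Without undifferentiated replicate 2 the difference was 1.36 and did not pass the test (adjusted p = 0.142), and with differentiated arrays 1 and 2 alone it was 1.49 (adjusted p = 0.102).

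Cldn3 and Cldn4 are neighbours on mouse chromosome 5 with 0 annotated genes between them, and they are transcribed away from each other. Cldn12 is on the same chromosome, Cldn7 on chromosome 11, Cldn1 and Cldn8 on chromosome 16 and Cldn23 on chromosome 8. Promoter windows of 250 bases before and 50 after a start were found for 5 of the 7 genes in RefSeq (build GRCm38.p6), 8 windows in all, and Cldn8 and Cldn23 had no entry. The windows were searched on both strands for the consensus sites of the 3 transcription factors that the study followed, TGACGTCA for CREB, TTGCGCAA for C/EBP and TGACTCA for AP-1, the factor that c-Jun is part of, whose other strand reads TGAGTCA. None of the 3 motifs contains another. The 250 bases before the start of the neighbouring pair are shown because both genes rose with calcium, and capitals mark an AP-1 match. Cldn4 is chr5:134946935-134947184 on the minus strand and Cldn3 is chr5:134985964-134986213 on the plus strand.
Cldn4: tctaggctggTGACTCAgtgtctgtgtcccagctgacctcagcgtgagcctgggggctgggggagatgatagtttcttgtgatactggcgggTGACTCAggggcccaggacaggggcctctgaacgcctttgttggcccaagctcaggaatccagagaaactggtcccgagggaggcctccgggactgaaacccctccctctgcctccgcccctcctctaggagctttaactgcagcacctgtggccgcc
Cldn3: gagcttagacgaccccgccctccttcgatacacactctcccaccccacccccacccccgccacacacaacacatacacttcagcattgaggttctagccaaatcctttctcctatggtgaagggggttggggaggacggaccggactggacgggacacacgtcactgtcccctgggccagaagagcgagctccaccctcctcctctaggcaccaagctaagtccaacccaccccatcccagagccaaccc

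Cldn4 held 2 AP-1 matches, which begin 240 and 158 bases before the start. At least 1 such match was found in 5.2% of the 32817 windows of all genes, and 2 or more in 0.222%. The Cldn3 window held none of the 3 motifs. Cldn7 has 2 annotated starts, and the window of the downstream one held 1 CREB match that begins 38 bases before it, a motif found in 1.79% of windows. The stretch around it, chr11:69965372-69965401 on the plus strand with the match in capitals, is shown because it was the only CREB match among the 8 claudin windows.
Cldn7: tgtcccttcagTGACGTCAggtcactcgac

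No window of Cldn1 or Cldn12 held any of the 3 motifs, and the C/EBP motif, found in 0.183% of all windows, was in none of the 8. These matches describe letters in a short stretch and not the binding of a factor. The study measured binding itself, over a longer stretch. It reports the Cldn4 promoter as bound by c-Jun and by C/EBPβ, a member of the C/EBP family, and not by CREB.

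The other 3 claudins did not pass the test. Cldn1, the claudin on which the water barrier of mouse skin depends, had levels of 7.48, 7.30, 7.25 and 7.40 in differentiated cells, against 7.11 and 7.09 in undifferentiated cells. All 4 differentiated arrays lay above both undifferentiated ones, but the difference was only 0.25 ± 0.10 (SE, 95% interval 0.03 to 0.48, adjusted p = 0.142).

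Cldn12, which in gut is known for calcium permeability, had levels of 9.41, 9.0, 9.53 and 9.26 in differentiated cells, against 9.13 and 9.08 in undifferentiated cells. These groups overlapped, and the difference of 0.20 had an interval of -0.12 to 0.52 (adjusted p = 0.475).

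Cldn8, a partner of Cldn4 in the collecting duct of the kidney, lay at 3.28, 3.11, 3.14 and 3.13 in differentiated cells, against 3.86 and 3.35 in undifferentiated cells. All 10 arrays lay below the array median, so these values do not show that the mRNA was above background. The difference of -0.44 ± 0.17 (SE) did not pass (adjusted p = 0.117). It passed without undifferentiated replicate 2, at -0.70 (adjusted p = 0.043), and with the hybridization controls as a covariate, at -0.38 (adjusted p = 0.028).

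The probe sets of a gene agreed for Cldn3 and Cldn12 and did not for Cldn1. The 4 Cldn3 probe sets gave calcium differences of 3.71 to 3.93. All 4 are of kinds that the array's maker marks as shared among transcripts (ending _a_at) or open to cross-hybridization (ending _x_at), so they are not independent readings of the gene. The 2 Cldn12 probe sets gave 0.24 and 0.16.

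For Cldn1, probe sets 1437932_a_at and 1450014_at lay at 11.2 to 11.9 and 10.3 to 11.3, whereas 1438850_at and 1438851_x_at lay below the array median on all 10 arrays. The dim probe sets lessen the differences of the mean, which in the bright pair were 0.31 and 0.67 with calcium. With probe sets kept only where they exceeded the array median on every array, a choice made after the data were seen, the Cldn1 difference was 0.49 (adjusted p = 0.065). The gap of 1437932_a_at over 1450014_at was 0.69 and 1.29 in A-C/EBP cells, 0.68 and 1.01 in 5-AZA cells, 0.50, 0.53, 0.39 and 0.65 in differentiated cells and 0.93 and 0.82 in undifferentiated cells. It was widest on A-C/EBP replicate 2, the array with the brightest hybridization controls.

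**Figure D2:**
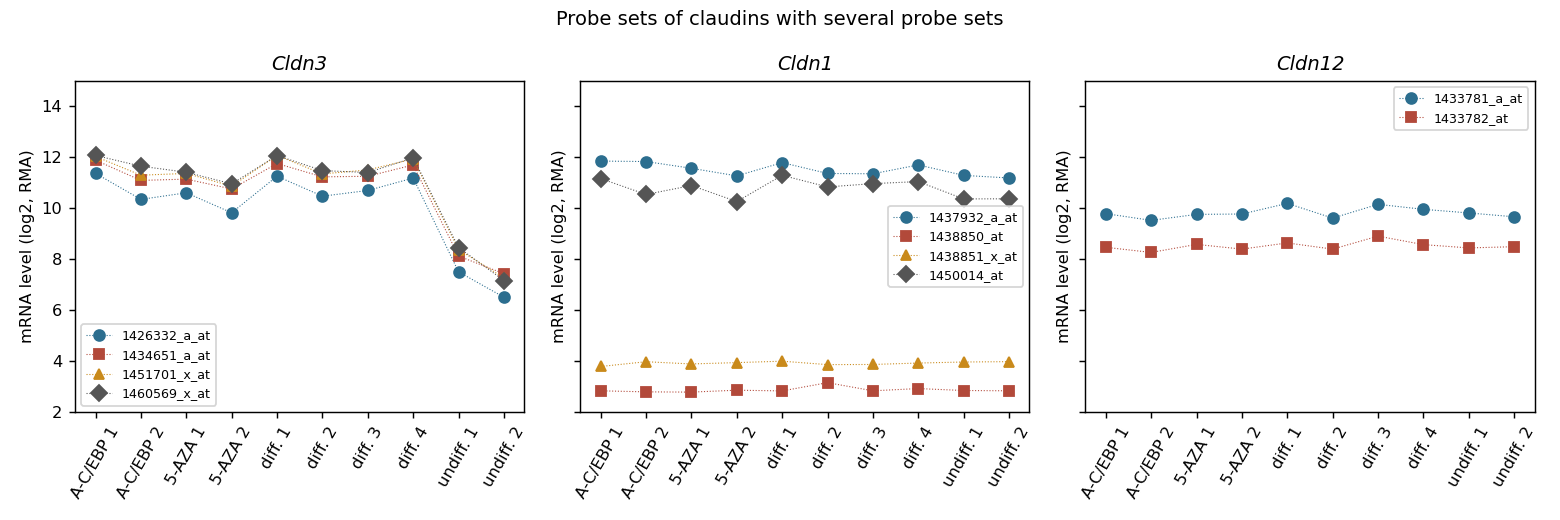
mRNA level (log2, RMA) of each probe set of Cldn3, Cldn1 and Cldn12 on the 10 arrays, with A-C/EBP, 5-AZA, differentiated (diff.) and undifferentiated (undiff.) arrays from left to right and lines only joining the points of a probe set. The 4 Cldn3 probe sets drop together on the 2 undifferentiated arrays, while 2 of the 4 Cldn1 probe sets stay at 4.0 or less on every array.

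The second question was whether A-C/EBP or 5-AZA altered claudin levels in differentiated keratinocytes. The comparisons below share the 4 differentiated arrays, or the 2 undifferentiated ones, and are not independent of each other. With A-C/EBP, none of the 7 claudins passed the limma test against differentiated cells and none had an unadjusted p under 0.05, where 2.07% of all genes passed and 2469 genes had such a p. None was more than 0.5 away from its level in differentiated cells, whereas 6.74% of all genes were.

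Cldn23 had levels of 10.39 and 9.86 with A-C/EBP, within the 9.85 to 10.62 of differentiated cells, and differed by -0.13 (95% interval -0.59 to 0.33). Cldn3 had 11.84 and 11.10 with A-C/EBP, a difference of 0.01 (interval -0.71 to 0.73). Cldn4 had 13.22 and 12.21 with A-C/EBP, a difference of 0.17 (interval -0.73 to 1.06). The A-C/EBP arrays overlapped the differentiated ones in all 3 genes, and the interval of Cldn4 does not exclude an increase of 2-fold.

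Cldn7 had 9.30 and 8.11 with A-C/EBP, a difference of 0.02 (interval -0.86 to 0.90). Cldn1 had 7.41 and 7.28, a difference of -0.01 (interval -0.24 to 0.22), but its 2 bright probe sets went opposite ways, by 0.29 for 1437932_a_at and -0.18 for 1450014_at, and the other 2 were below the array median. Cldn12 had 9.13 and 8.89, a difference of -0.29 (interval -0.61 to 0.03, adjusted p = 0.422), and of the 7 it came nearest to the threshold. Cldn8 had 3.53 and 3.03, both below the array median.

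Against undifferentiated cells, Cldn23, Cldn3, Cldn7 and Cldn4 rose with A-C/EBP, where 7.6% of all genes rose. The increases were 4.99 ± 0.24 (SE) for Cldn23 and 3.87 ± 0.37 for Cldn3, with 2.29 ± 0.46 for Cldn7 and 1.93 ± 0.46 for Cldn4 (limma adjusted p = 4.8e-06 for Cldn23, 0.000113 for Cldn3, 0.00667 for Cldn7 and 0.0172 for Cldn4). The calls of Cldn4 and Cldn7 rested on single arrays. Without A-C/EBP replicate 1, Cldn4 was at 1.43 (adjusted p = 0.126) and Cldn7 at 1.70 (adjusted p = 0.0517), and without undifferentiated replicate 2 Cldn4 was at 1.53 (adjusted p = 0.127).

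With 5-AZA, none of the 7 claudins passed against differentiated cells, where 0.286% of all genes passed. Only Cldn7 had an unadjusted p under 0.05, as did 1655 genes in all. Of the 7 differences 6 were negative and their median was -0.18, against 0.04 for all genes. Cldn7 and Cldn3 were lower by more than 0.5, and 3.98% of all genes moved that far in either direction.

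Cldn7 had levels of 8.19 and 7.12 with 5-AZA, against 8.12 to 9.10 in differentiated cells. The first of these arrays lay inside the differentiated range and the second below it. The difference was -1.03 ± 0.39 (SE, 95% interval -1.91 to -0.15, adjusted p = 0.459). It was -0.49 without 5-AZA replicate 2 and -1.57 without 5-AZA replicate 1.

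Cldn3 had levels of 11.13 and 10.60 with 5-AZA, against 11.13 to 11.79 in differentiated cells. The higher of these arrays lay just under the lowest differentiated one, and the difference was -0.59 (interval -1.31 to 0.12, adjusted p = 0.643). Cldn23 had 9.80 and 9.82 with 5-AZA, both just under the lowest differentiated array, and the difference was -0.44 (interval -0.90 to 0.02, adjusted p = 0.573). The hybridization controls averaged 9.99 and 10.59 on the 5-AZA arrays and 9.03 to 10.37 on the differentiated arrays. With these controls as a covariate the differences were -0.73 for Cldn7, -0.31 for Cldn3 and -0.31 for Cldn23, none of which passed.

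Cldn4 had 12.66 and 12.15 with 5-AZA, inside the range of differentiated cells, and differed by -0.14 (interval -1.03 to 0.75). Cldn1 had 7.28 and 7.08 and differed by -0.18, and Cldn12 had 9.17 and 9.08 and differed by -0.18. Cldn8 had 3.27 and 3.12 and differed by 0.03.

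Against undifferentiated cells, 3 claudins rose with 5-AZA, where 7.42% of all genes rose. They were Cldn23 by 4.68 ± 0.24 (SE), Cldn3 by 3.27 ± 0.37 and Cldn4 by 1.63 ± 0.46 (limma adjusted p = 1.04e-05 for Cldn23, 0.000385 for Cldn3 and 0.0383 for Cldn4). Cldn7 was higher by 1.24 ± 0.46 and did not pass (adjusted p = 0.103), but passed with the hybridization controls as a covariate (1.68, adjusted p = 0.0068). The Cldn4 call was lost in 8 of 23 other settings, with adjusted p of 0.0504 to 0.229. These left out either 5-AZA array (1.37 and 1.88), either undifferentiated array (2.03 without replicate 1 and 1.22 without replicate 2) or differentiated replicate 1 or 4 (1.63 each), or used differentiated arrays 1 and 2 alone (1.63) or arrays centred on their medians (1.60).

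**Figure D3:**
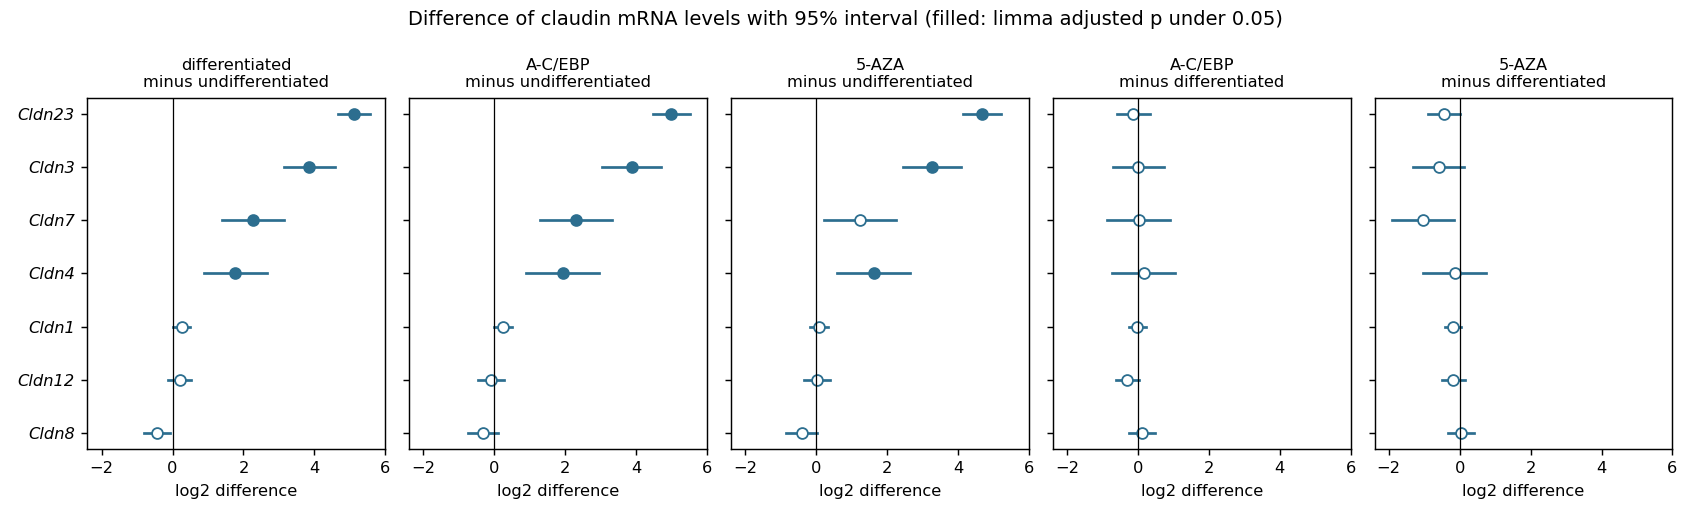
Log2 difference of each of the 7 claudins with its 95% interval in 5 comparisons of A-C/EBP, 5-AZA, differentiated and undifferentiated keratinocytes; filled points passed the limma test (adjusted p under 0.05). Cldn23, Cldn3 and Cldn4 are filled in all 3 comparisons with undifferentiated cells, and no point is filled in the 2 comparisons with differentiated cells.

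The treatments were also set against each other, which leaves the shared control out. None of the 7 claudins passed between A-C/EBP and 5-AZA cells, where 3.19% of all genes passed. Cldn7 was higher by 1.05 ± 0.46 (SE, 95% interval 0.04 to 2.07) with A-C/EBP than with 5-AZA and alone had an unadjusted p under 0.05 (adjusted p = 0.305), as did 2808 of all genes. Cldn3 was higher by 0.60 (interval -0.23 to 1.43).

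Of 24 other claudins and claudin-like genes listed, 16 were measured, at levels of 2.83 to 5.73. None of the 16 passed in any of the 6 comparisons, and their median calcium difference was 0.06. Cldn5, the claudin of vessel walls, was above the array median on all 10 arrays at 4.76 to 5.73, as was Tmem114. The array medians themselves were 4.64 to 4.78, so some of these values were close to them. Of 5 endothelial markers 1 lay above the array median on each array. Cldn2, Cldn6, Cldn9, Cldn11, Cldn16, Cldn18, Cldn19, Cldn34c1 and Cldn34d were below the array median on every array.

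**Figure D4:**
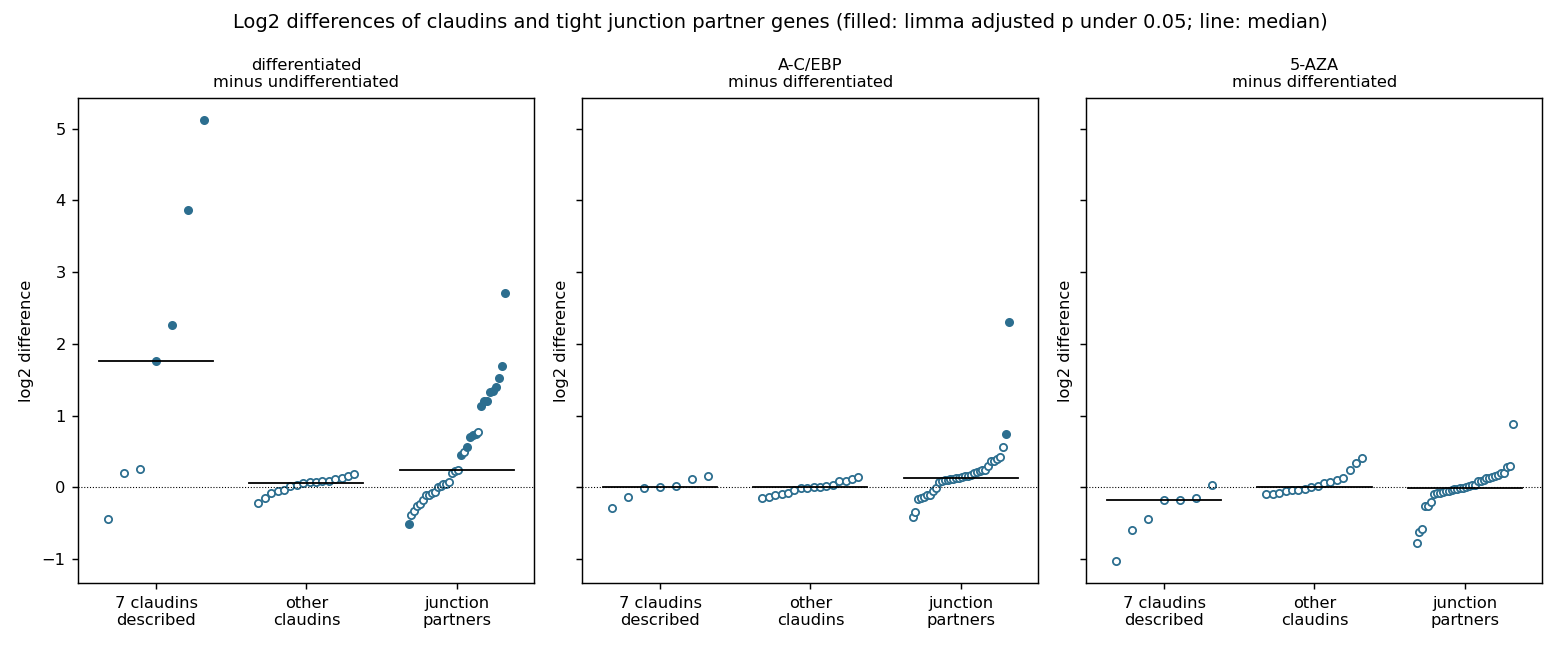
Log2 differences of the 7 claudins described, 16 other claudins and 34 tight junction partner genes, each ordered by size, for calcium (differentiated minus undifferentiated), for A-C/EBP and for 5-AZA (each minus differentiated); filled points passed the limma test and black lines are medians. With calcium 4 of the 7 claudins and 15 of the 34 partners are filled, with A-C/EBP 2 partners are filled, and with 5-AZA none is.

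Partner genes of the claudins at the junction were described from a list of 38 symbols, of which 34 were measured. Inadl and Pals1 on the list are other names of Patj and Mpp5, which were measured. It also held St14, Prss8, Grhl1, Grhl2, Grhl3 and Ephb4, which are not parts of the junction itself. Of these St14 and Prss8 rose with calcium. In differentiated cells 14 of the 34 rose, 1 fell and 19 did not pass, where 6.64% of all genes rose and 9.13% fell. The median difference of the 34 was 0.24. Those with the smallest adjusted p were Marveld3 (1.33) and Marveld2 (1.53), relatives of occludin in the strand, Crb3 (1.21), an apical polarity protein, and Epcam (1.14), which binds Cldn7 in gut epithelium. Marveld2 had levels of 8.41, 7.95, 8.28 and 8.44 in differentiated cells, against 7.0 and 6.48 in undifferentiated cells. Mpdz, a scaffold with many PDZ domains, fell by 0.51.

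With A-C/EBP 2 of the 34 partners rose and none fell, where 2.07% of all genes passed in either direction. Tjp3, a zonula occludens scaffold that binds the tails of claudins, had levels of 7.43 and 7.28 with A-C/EBP, against 5.28, 5.16, 4.87 and 4.90 in differentiated cells. The groups were far apart, by 2.31 ± 0.16 (SE, limma adjusted p = 0.000237). Tjp3 was 5.27 and 5.19 with 5-AZA and 4.08 and 4.61 in undifferentiated cells, so that only the A-C/EBP arrays were above 7. Mpp5, a polarity scaffold also called Pals1, was 8.91 and 9.18 with A-C/EBP, against 8.35, 8.21, 8.29 and 8.36 in differentiated cells (0.74, adjusted p = 0.00837). With 5-AZA none of the 34 passed.

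The claudins that rose are also found in simple epithelia, and other genes of such epithelia were measured beside them. Of 6 listed markers 5 rose in differentiated cells, where 6.64% of all genes rose, Krt8 (4.60), Krt18 (4.34), Krt7 (2.93) and Krt19 (2.63), all keratins of simple epithelia, and Epcam (1.14). Krt20, a keratin of gut lining, stayed at 3.68 to 4.14 on all arrays, below the array median. The summed level of the 6 was 12.83 to 13.25 with A-C/EBP, 11.84 to 12.62 with 5-AZA, 11.95 to 12.79 in differentiated cells and 9.39 to 9.42 in undifferentiated cells. Of 7 sebaceous and hair follicle markers 3 rose, Krt79 (4.61), Scd1 (2.70) and Plin2 (1.30), and the summed level of the 7 was 12.67 to 12.99 with A-C/EBP, 13.54 to 13.93 with 5-AZA, 13.16 to 13.75 in differentiated cells and 12.37 to 12.52 in undifferentiated cells. The other 4 of these 7 did not pass. Of the 7 keratinocyte markers none rose and 2 fell, where 9.13% of all genes fell, Krt5 (-0.75) and Trp63 (-1.42), a transcription factor of basal cells. The median difference of these 7 was -0.75, and their summed level was 14.92 to 15.04 with A-C/EBP, 14.55 to 14.79 with 5-AZA, 14.35 to 14.76 in differentiated cells and 14.90 to 15.07 in undifferentiated cells. Krt1 and Krt10, which the study names among genes of keratinocyte differentiation, were among the 5 that did not pass. Krt1 was at 9.17, 8.87, 8.38 and 8.75 in differentiated cells, against 9.18 and 10.98 in undifferentiated cells. Krt10 was at 8.10, 7.97, 8.03 and 7.60, against 8.33 and 9.96. The part of these genes in the claudin result was not tested, and in bulk cultures more cells of a type and more RNA per cell cannot be told apart.

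The genes most like each claudin over the 10 arrays were taken from the 3659 genes whose range exceeded 1, as the 2 with the highest Pearson r. For Cldn23 they were Arg1 (0.993) and Ptgr1 (0.991), and for Cldn3 they were Sowahb (0.986) and Pgm2 (0.985). For Cldn4 they were Gk5 (0.984) and Wbp2 (0.980), and for Cldn7 they were Gprc5a (0.964) and Olr1 (0.959). The 2 undifferentiated arrays lie apart from the other 8 in these claudins, and each r carries that gap.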

How the data were processed

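The authors hybridized mRNA of the cultured keratinocytes to Affymetrix mouse expression arrays. They deposited 1 table of log2 expression values for 45101 probe sets, made per the labels with RMA in Affymetrix Expression Console. The version of that software is not given in the sources used here. Probe sets with 1 symbol in GEO's platform annotation (34958) were averaged to 18194 genes, while 932 with several symbols and 9211 with none were left out. limma 3.58.1 (R 4.3.3) fitted a mean per condition to all 10 arrays (6 residual degrees of freedom), and genes passed at a Benjamini-Hochberg adjusted p under 0.05, two-sided. The fit was tested on simulated data. The number of arrays limits the precision. Alternatives were other scalings and probe set rules, a replicate block, a t-test, subsets of arrays and hybridization controls as a covariate. The methods name a two-sided t-test for comparing samples and state no test of single genes between arrays. What is called the methods' t-test below is such a test run here on each gene. Members and lists were chosen with earlier results of these data known. Beside the 7 claudins, the text names up to 4 listed genes with the smallest adjusted p per comparison among those that passed, and the 2 genes most correlated with each claudin whose range exceeded 1. Genes of the marker lists, the rest of the family and Mpdz were named after their values were seen.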

Additional observations from a re-analysis of the deposited data

Results flagged for a closer look

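In 2 of the 7 claudins, 1 of the 4 differentiated arrays lay far from the other 3, by Dixon's criterion at the 95% level. By its definition chance meets this criterion in about 1 of 20 groups. The share of all genes that met it on these arrays was not computed, so the count is not shown to be particular to claudins. For Cldn4, differentiated replicate 2 was at 11.66 and the others at 12.78 to 12.88, and the gap took 0.915 of the range. This array also had the lowest maximum of the 10, 13.67. For Cldn8, which lay below the array median throughout, differentiated replicate 1 was at 3.28 and the others at 3.11 to 3.14, with a gap of 0.845 of the range.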

How the results depend on the processing

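Each count of claudins that passed was recomputed in 26 other settings. With calcium 4 passed in each fit that left out 1 array (4 to 4), but without undifferentiated replicate 2 these were 3 that rose and Cldn8, which fell, with Cldn4 lost, and 2 passed by the methods' t-test after adjustment. Between A-C/EBP and undifferentiated cells 2 to 4 passed with 1 array left out (2 without A-C/EBP replicate 1), 2 by the methods' t-test unadjusted and 0 adjusted. Between 5-AZA and undifferentiated cells 2 to 3 passed with 1 array left out and 0 by the adjusted t-test. In the 3 comparisons among differentiated cells 0 passed with any array left out. More than 0.5 without a test counted 2 for 5-AZA minus differentiated and 2 for A-C/EBP minus 5-AZA. Of all 18194 genes, 344 were higher and 380 lower by that much in the first of these, and 972 and 852 in the second. The adjusted t-test passed 0 of all genes for A-C/EBP minus undifferentiated and 0 for 5-AZA minus undifferentiated. Its count of 0 claudins there is thus not particular to the family. With calcium it called 376 genes as higher and 488 as lower.

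Same-numbered arrays deviated together with correlations of 0.093 to 0.430, all 12 positive, 11 of 12 over 0.1 and 1 not. Arrays of other numbers ran from -0.563 to 0.563. In conditions with 2 arrays the deviations mirror each other, so these values are not separate readings. Whether the numbers pair the arrays cannot be told from them. Numbers are those of the array titles, and the description of the A-C/EBP array titled 1 carries the number 2. With a replicate block 1 claudin passed between 5-AZA and differentiated cells (Cldn7, -1.10, adjusted p = 0.0447) and 2 between A-C/EBP and 5-AZA (Cldn3, 0.60, adjusted p = 0.0342, and Cldn7, 1.05, adjusted p = 0.0237). The block also passed Cldn7 between 5-AZA and undifferentiated cells (1.24, adjusted p = 0.004). With the block 213 of 18194 genes rose and 185 fell between 5-AZA and differentiated cells, against 31 and 21 without it. Between A-C/EBP and 5-AZA 817 rose and 567 fell, against 374 and 206. Between 5-AZA and undifferentiated cells 2023 rose and 2205 fell, against 1350 and 1586. The block thus raised the number of calls among all genes, not only among claudins.

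Only differences that had not passed changed sign. For A-C/EBP minus differentiated, Cldn1 (-0.01) was 0.29 with the brightest probe set, 0.021 with differentiated arrays 3 and 4, 0.050 with the hybridization covariate, 0.054 with probe sets above the median, and -0.073 to 0.051 with 1 array left out. Cldn3 (0.01) was -0.020 with median centring, -0.032 with quantile normalization and -0.36 to 0.38 with 1 left out. Cldn4 (0.17) was -0.11 with arrays 3 and 4 and -0.34 to 0.67 with 1 left out. Cldn7 (0.02) was -0.0053 centred, -0.019 with quantiles, -0.051 with the block or with arrays 1 and 2, and -0.57 to 0.62 with 1 left out. Cldn8 (0.12) ran from -0.13 to 0.37 with 1 left out, and Cldn23 (-0.13) from -0.39 to 0.14, with 0.039 under the covariate.

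For 5-AZA minus differentiated, Cldn4 (-0.14) was 0.13 with the block or with arrays 1 and 2, 0.19 with the covariate and -0.44 to 0.11 with 1 left out, and Cldn8 (0.03) was -0.019 centred and -0.041 to 0.10 with 1 left out. For A-C/EBP minus 5-AZA with 1 left out, Cldn4 ran from -0.19 to 0.81 and Cldn8 from -0.16 to 0.33. For A-C/EBP minus undifferentiated, Cldn12 was 0.037 with the covariate and -0.21 to 0.024 with 1 left out. For 5-AZA minus undifferentiated with 1 left out, Cldn1 ran from -0.022 to 0.18 and Cldn12 from -0.019 to 0.067, with -0.0018 centred.

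The brightest probe set of Cldn1 passed between A-C/EBP and undifferentiated cells (0.60, adjusted p = 0.0423). Cldn3 has no value without shared probe sets and Cldn8 none without dim ones. The cause of these changes was not tested. With 2 arrays in most conditions, a lone array is assumed to vary like the others.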

Other observations

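In 6 of the 7 claudins, all but Cldn23, the array numbered 1 was higher than the array numbered 2 in all 4 conditions. The share of all genes with this pattern was not computed, so it is not shown to be particular to claudins. Numbers are those of the array titles, and the description of the A-C/EBP array titled 1 carries the number 2. The array numbered 1 was higher than the array numbered 2 for Cldn4 by 1.00 in A-C/EBP cells, 0.50 in 5-AZA cells, 1.22 in differentiated cells and 0.82 in undifferentiated cells. For Cldn3 the gaps were 0.74 in A-C/EBP cells, 0.53 in 5-AZA cells, 0.66 in differentiated cells and 1.03 in undifferentiated cells. For Cldn7 they were 1.18 in A-C/EBP cells, 1.07 in 5-AZA cells, 0.54 in differentiated cells and 0.29 in undifferentiated cells. For Cldn1, Cldn8 and Cldn12 they were between 0.02 and 0.52. Cldn23 differed in sign, with 0.53 in A-C/EBP cells, -0.01 in 5-AZA cells, 0.77 in differentiated cells and -0.21 in undifferentiated cells. The hybridization controls were at 9.50 and 11.34 on arrays 1 and 2 of A-C/EBP cells, 9.99 and 10.59 of 5-AZA cells, 9.03 and 10.37 of differentiated cells and 9.03 and 10.07 of undifferentiated cells, and so were higher on the array numbered 2 in each condition. Their part in the claudin values was not tested beyond the covariate fit.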
